A study of Mus musculus with 16 samples.

Results

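The genes described here are 38 enzymes and enzyme regulators that carry pyruvate into the citric acid cycle, run the cycle, and break down the branched-chain amino acids leucine, isoleucine and valine. They were taken as a list of names by pathway: 10 genes of pyruvate entry, 14 of the cycle and 14 of branched-chain catabolism. The rule itself used no difference between the groups, but the list was chosen with earlier results of these data known. All 38 were measured in every mouse, among 13601 genes tested in all.

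Gastrocnemius, a calf muscle of mixed fibre type, was taken from 16 male FVB/n mice and its total RNA was hybridised to Affymetrix arrays, 1 array a mouse. The 8 deletion mice (labelled HF KO) carried Mx1-Cre and loxP-flanked alleles of Foxo1, Foxo3 and Foxo4 (FoxO1,3,4 L/L), the genes of the insulin-inhibited FoxO transcription factors. The 8 control mice (labelled HF WT) were littermates with the same floxed alleles and no Cre. Mice of both groups were given polyinosine:cytidine injections at 4-5 weeks of age, were put at 7-8 weeks on a diet high in fat (58%) and lower in protein (16.4%) and carbohydrate (25.5%), ate it for 8 weeks, and were killed at 16 weeks. The labels describe the deletion as directed to the endothelium. The Mx1 promoter answers to interferon and is not itself specific to endothelial cells, and Cre was present in the deletion group alone, so that an effect of Cre and an effect of losing FoxO cannot be told apart. The labels number the animals as biological replicates.

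The values are log2 RMA expression levels, in which 1 unit is a 2-fold step, and they are compared between mice for the same gene only. Array medians ran from 4.43 to 4.61 and any pair of arrays correlated at 0.958 to 0.982. The tissue label fitted its markers: Ckm, the muscle creatine kinase, lay at 12.67 or more in every deletion mouse, and the 7 fibre genes examined averaged 12.77 to 12.95 in deletion mice and 12.74 to 13.02 in controls. Foxo1 averaged 7.36 ± 0.36 in deletion muscle and 7.29 ± 0.06 in control muscle (SD, n = 8 each). Foxo3 averaged 5.88 ± 0.40 in deletion and 5.38 ± 0.16 in control muscle, and Foxo4 averaged 7.18 ± 0.26 in deletion and 7.42 ± 0.15 in control muscle. None of these 3 differences passed limma's test over all genes (adjusted p 0.804, 0.0762 and 0.236), and no label says whether the probe sets lie in the deleted exons, so these levels do not check the labels. Muscle is a mixture of cells, and fewer cells of a type cannot be told apart from less RNA per cell. Of 12 endothelial marker genes, 9 were higher in deletion muscle by limma's test, with list means of 7.62 to 8.24 in deletion mice and 7.32 to 7.73 in controls. Without the 6 mice high in a liver transcript, described below, 1 of the 12 passed, and the median difference of the list was 0.334, against 0.523 over all mice. Of 8 macrophage markers 2 were higher by the test, with list means of 6.41 to 7.81 in deletion mice and 6.11 to 6.89 in controls. Of 4 Schwann cell markers 0 passed, with list means of 6.02 to 7.73 in deletion mice and 6.02 to 7.66 in controls. The part of these cell types in the values of the 38 genes was not tested.

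As background, pyruvate made in the cytosol is turned into acetyl-CoA by the pyruvate dehydrogenase complex, which kinases switch off and phosphatases switch on. The citric acid cycle then oxidises the acetyl group and hands the electrons to the respiratory chain. Skeletal muscle is a main site where branched-chain amino acids lose their amino group, after which a second dehydrogenase complex, built on the same plan, commits their carbon to oxidation that ends in acetyl-CoA or in succinyl-CoA. Muscle fibres hold most of the mitochondria of the tissue, and FoxO factors in muscle are textbook activators of the kinase gene Pdk4.

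Across the 38 genes, deletion and control muscle were close. None passed limma's test at an adjusted p of 0.05, beside 249 of the 13601 genes tested (1.83%), of which 208 were higher (1.53%) and 41 lower (0.301%) in deletion muscle. At an unadjusted p under 0.05, 3 members were lower, where the background in that direction was 6.82%, and 0 were higher, where it was 10.5% (17.3% of all genes in either direction). In none of the 38 did the 2 groups separate without overlap, a pattern found in 48 of all genes (0.353%). The differences, deletion minus control, ran from -0.21 for Sucla2 to 0.12 for Pcx, and adjusted p ran from 0.174 to 0.986.

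The data also bound how large a difference could be. All 38 of the 95% confidence intervals lay inside 0.5 log2 units either way, a 1.41-fold step, and 27 lay inside 0.3 units, a 1.23-fold step. The lowest bound was -0.39, for Dbt, and the highest was 0.35, for Idh2. Intervals of 35 members spanned 0. These bounds speak of RNA levels in whole muscle on the compressed scale of an array. They do not carry over to fewer mice. Without the mice high in a liver transcript, described below, the difference of Ppm1k was -0.33 (SE 0.17) and that of Bckdha -0.30 (SE 0.13).

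The signs leaned one way while the sizes stayed small. The difference was below 0 for 33 of 38 members (86.8%), against 49.8% of all genes. The members vary together, as described below, so their signs are not independent, here or in subsets of mice. Such a count is no test of an excess. The median difference was -0.068 over the members and 0.001 over all genes. By pathway the medians were -0.058 for pyruvate entry (7 of 10 below 0), -0.046 for the cycle (13 of 14) and -0.089 for branched-chain catabolism (13 of 14). Deletion mouse 6, described below, took a large share in this lean: without it 27 of 38 members were below 0 and the 3 medians came to -0.041, -0.006 and -0.027. With arrays centred on their medians, which moved the median of all genes to -0.052, they were -0.111, -0.1 and -0.142.

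**Figure D1:**
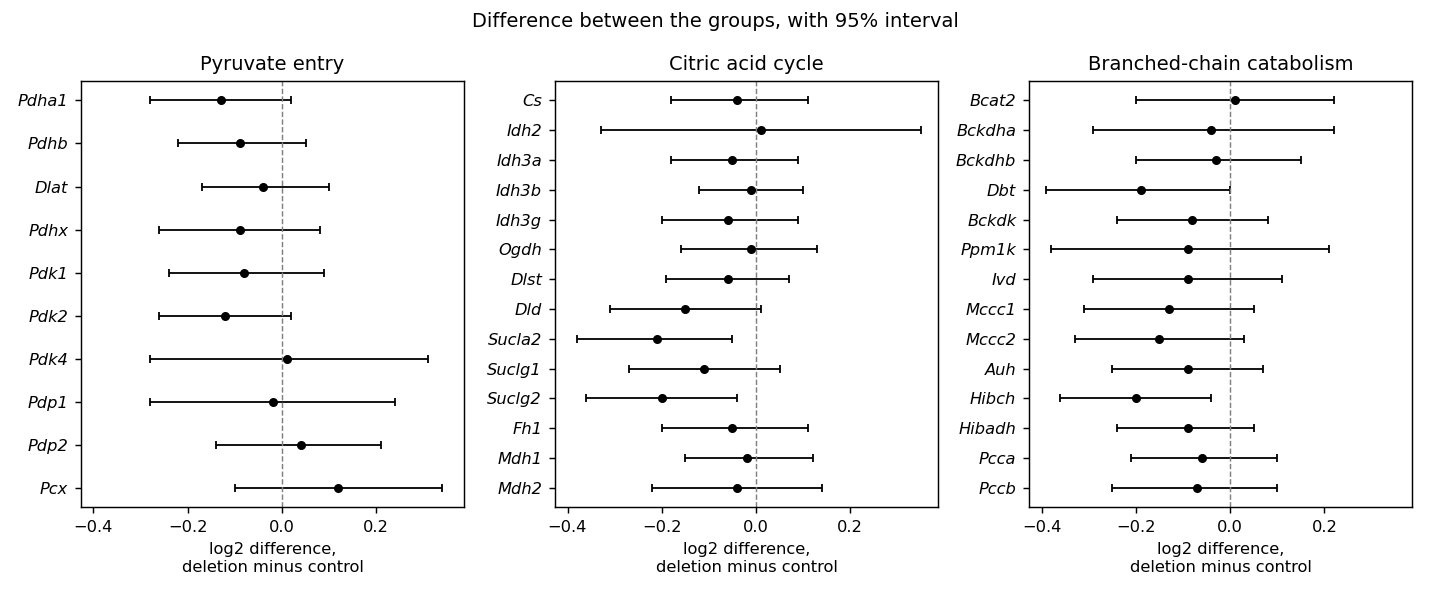
Difference in log2 expression, deletion minus control (x axis), for the 38 genes in 3 panels by pathway. Points are limma estimates from 8 mice a group and bars are 95% confidence intervals; all bars lie between -0.39 and 0.35, and those of Sucla2, Suclg2 and Hibch end below 0.

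Pyruvate entry begins with the dehydrogenase complex. Pdha1, the catalytic alpha subunit of its decarboxylase, was at 10.64, 10.98 and 11.11 in deletion mice (lowest, median, highest), against 10.89, 11.06 and 11.23 in control mice. The groups overlapped over most of this range, and the difference of -0.13 (SE 0.07, 95% interval -0.28 to 0.02) did not pass (adjusted p = 0.359). Its beta partner Pdhb was at 10.87, 11.09 and 11.32 in deletion mice, against 11.08, 11.20 and 11.26 in control mice. Deletion mice held both the lowest and the highest Pdhb values of the 16, and the difference was -0.09 (SE 0.06, adjusted p = 0.496). The acyltransferase Dlat differed by -0.04 and the binding protein Pdhx, which ties the shared dehydrogenase Dld to the complex, by -0.09.

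The switches of the complex among the members lay as close. Pdk4, the starvation- and FoxO-responsive kinase, was at 11.60, 11.91 and 12.42 in deletion mice, against 11.35, 12.06 and 12.35 in control mice. It was among the more variable members, with a within-group SD of 0.31, the groups overlapped throughout, and the difference was 0.01 (SE 0.14, interval -0.28 to 0.31, adjusted p = 0.972). Its sign turned under 6 of the 12 alternatives that keep or leave out whole sets of mice or change the fit, so no direction can be given. Pdk2, the widely expressed kinase, was at 9.85, 9.99 and 10.30 in deletion mice, against 10.04, 10.09 and 10.29 in control mice. Of the 8 deletion mice, 5 lay below every control mouse while deletion mouse 5 lay above them all, and the difference was -0.12 (SE 0.07, adjusted p = 0.360). Pdk1 differed by -0.08, and a dimmer probe set for it, above its array's median in 5 mice only, gave -0.32. Pdk3, a kinase outside the members, was at 4.70, 5.21 and 5.48 in deletion mice, against 4.73, 4.92 and 5.11 in control mice. In 5 of 8 deletion mice it lay above every control mouse. The difference of 0.23 (SE 0.10, interval 0.02 to 0.44) did not pass limma's test (adjusted p = 0.236).

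The phosphatases that reactivate the complex were no different in kind. Pdp2 was the dimmest member, at 4.77, 5.05 and 5.38 in deletion mice and 4.78, 5.01 and 5.15 in control mice. The ranges coincided at their lower ends, and the difference was 0.04 (SE 0.08, adjusted p = 0.864). Pdp1 differed by -0.02. Pcx, pyruvate carboxylase, which makes oxaloacetate to refill the cycle, had the highest estimate of the 38: it was at 6.00, 6.29 and 6.72 in deletion mice, against 6.02, 6.19 and 6.53 in control mice. The groups overlapped, and the difference of 0.12 (SE 0.10, interval -0.10 to 0.34) did not pass (adjusted p = 0.580).

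Within the cycle, the early enzymes showed little. Citrate synthase, Cs, which joins acetyl-CoA to oxaloacetate and is often read as a gauge of mitochondrial content, was at 11.41, 11.58 and 11.87 in deletion mice, against 11.55, 11.64 and 11.81 in control mice. The deletion range enclosed the control range, and the difference was -0.04 (SE 0.07, interval -0.18 to 0.11, adjusted p = 0.830). Idh2, the NADP-linked isocitrate dehydrogenase, was the most variable member, with a within-group SD of 0.36: it was at 10.58, 11.16 and 11.57 in deletion mice, against 10.26, 11.24 and 11.46 in control mice. The lowest control value, 10.26 in control mouse 5, stood apart from the other controls at 11.09 to 11.46. The difference was 0.01 (SE 0.16, interval -0.33 to 0.35, adjusted p = 0.986). The subunits of the NAD-linked isocitrate dehydrogenase differed by -0.05 (Idh3a), -0.01 (Idh3b) and -0.06 (Idh3g), and Idh3b was the least variable of all members, with a within-group SD of 0.073.

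Oxoglutarate dehydrogenase is built from Ogdh, which differed by -0.01, Dlst, which differed by -0.06, and Dld. Dld, the lipoamide dehydrogenase that this complex shares with the pyruvate and branched-chain complexes, was at 11.29, 11.56 and 11.74 in deletion mice, against 11.55, 11.66 and 11.91 in control mice. The lower part of the deletion range fell below all controls, and the difference of -0.15 (SE 0.08, interval -0.31 to 0.01) did not pass (adjusted p = 0.313).

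Succinyl-CoA ligase, which makes ATP or GTP directly in the cycle, had the lowest estimates. Sucla2, the subunit that makes the enzyme ATP-forming, was at 10.36, 10.78 and 11.01 in deletion mice, against 10.88, 10.96 and 11.13 in control mice. In 6 of 8 deletion mice it lay below every control mouse. The difference was -0.21 (SE 0.08, interval -0.38 to -0.05), which did not pass over all genes (adjusted p = 0.174). Suclg2, the GTP-forming counterpart, was at 8.79, 9.26 and 9.35 in deletion mice, against 9.26, 9.37 and 9.56 in control mice. All 8 deletion mice lay below the control median and 3 lay below every control mouse, with a difference of -0.20 (SE 0.08, interval -0.36 to -0.04, adjusted p = 0.184). A second, dimmer probe set for Suclg2 gave -0.23. Without deletion mouse 6, the lowest for both, the differences were -0.15 for Sucla2 (adjusted p = 0.272) and -0.14 for Suclg2 (adjusted p = 0.288). The common alpha subunit Suclg1 differed by -0.11 (adjusted p = 0.478).

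Both ligase genes are shown with their promoters because they had the lowest estimates of the cycle. The windows run from 250 bases before to 50 bases after the start of each gene in RefSeq, build GRCm38.p6: Sucla2 at chr14:73552536-73552835 on the plus strand and Suclg2 at chr6:95718797-95719096 on the minus strand, each read along its gene. Capitals would mark a match to the FoxO core GTAAACA or its reverse complement TGTTTAC, the estrogen-related receptor site TCAAGGTCA or its reverse complement, or the NRF1 core GCGCATGC or its reverse complement. Neither window holds any of these, which says only that these letters are not in these windows.
Sucla2: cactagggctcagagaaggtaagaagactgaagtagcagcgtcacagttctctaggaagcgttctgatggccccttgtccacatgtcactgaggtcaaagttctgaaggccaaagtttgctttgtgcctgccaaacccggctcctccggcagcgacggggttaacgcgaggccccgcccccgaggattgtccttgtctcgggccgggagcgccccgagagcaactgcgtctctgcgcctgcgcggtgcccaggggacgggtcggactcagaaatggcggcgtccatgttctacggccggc
Suclg2: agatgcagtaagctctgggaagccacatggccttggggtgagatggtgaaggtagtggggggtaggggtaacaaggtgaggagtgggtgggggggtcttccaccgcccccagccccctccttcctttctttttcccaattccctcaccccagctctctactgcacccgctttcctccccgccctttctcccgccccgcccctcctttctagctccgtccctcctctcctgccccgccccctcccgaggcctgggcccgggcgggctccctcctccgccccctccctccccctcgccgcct

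The last steps of the cycle were close as well. Fumarase, Fh1, differed by -0.05. The malate dehydrogenases differed by -0.02 for the cytosolic Mdh1 and -0.04 for the mitochondrial Mdh2. Apart from Sucla2 and Suclg2, 0 of the 12 other cycle genes reached an unadjusted p of 0.05.

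**Figure D2:**
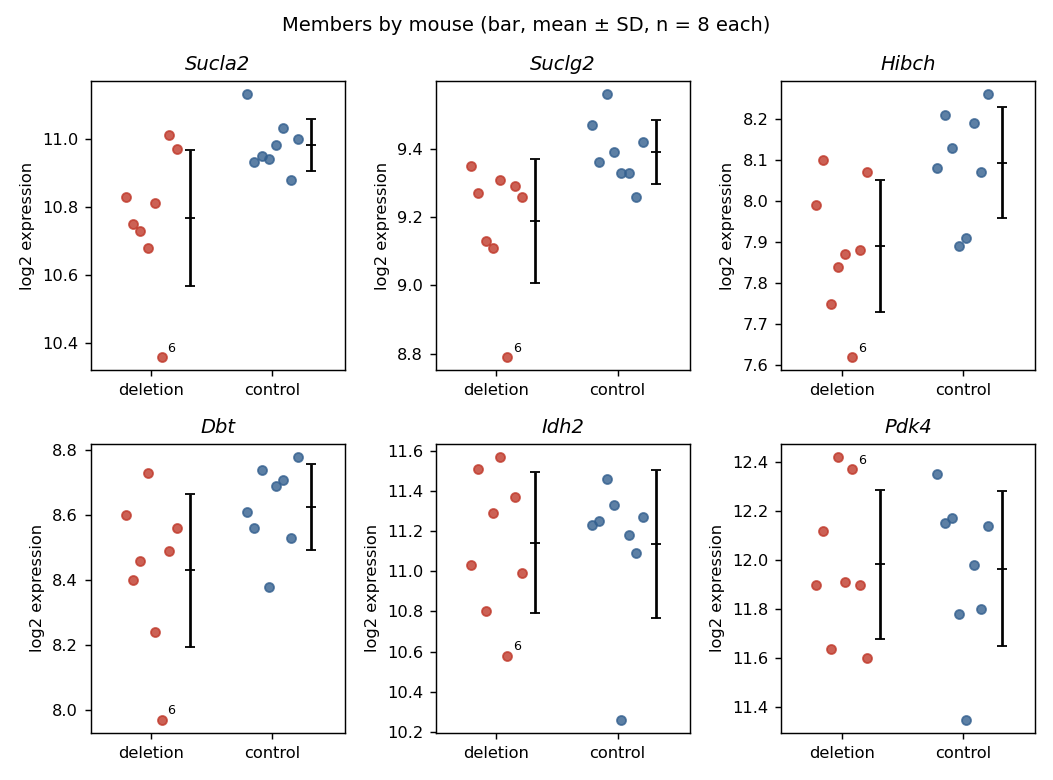
log2 expression (y axis) of 6 members in each mouse, deletion mice left and control mice right. Each point is a mouse, the bar is the group mean ± SD (n = 8 each), and 6 marks deletion mouse 6. Below every control lie 6 of 8 deletion mice for Sucla2, 5 for Hibch and 3 for Suclg2, while the groups overlap throughout for Idh2 and Pdk4.

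Branched-chain catabolism opens with the mitochondrial aminotransferase Bcat2. It was at 5.68, 6.19 and 6.63 in deletion mice, against 5.96, 6.18 and 6.33 in control mice. The deletion range reached past the control range at both ends, and the difference was 0.01 (SE 0.10, adjusted p = 0.969). The ketoacids it makes go to the branched-chain dehydrogenase complex, whose decarboxylase subunits differed by -0.04 (Bckdha) and -0.03 (Bckdhb). Its acyltransferase core Dbt was at 7.97, 8.47 and 8.73 in deletion mice, against 8.38, 8.65 and 8.78 in control mice. The groups overlapped above 8.38, and the difference of -0.19 (SE 0.09) had an interval of -0.39 to 0.00 and did not pass (adjusted p = 0.293).

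The kinase and phosphatase that set the activity of that complex gave no difference past the test. Bckdk, the inactivating kinase, was at 9.62, 9.66 and 9.90 in deletion mice, against 9.62, 9.76 and 10.03 in control mice. The lowest values were the same in both groups, and the difference was -0.08 (SE 0.08, adjusted p = 0.613). Ppm1k, the activating phosphatase, was at 7.21, 7.96 and 8.31 in deletion mice, against 7.57, 7.98 and 8.47 in control mice. The medians lay close, the spread within groups was wide, and the difference was -0.09 (SE 0.14, interval -0.38 to 0.21, adjusted p = 0.791); without deletion mouse 6 it was 0.0045.

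In the leucine branch, Ivd (isovaleryl-CoA dehydrogenase) differed by -0.09, Mccc1 (the biotin subunit of methylcrotonyl-CoA carboxylase) by -0.13 and Auh (methylglutaconyl-CoA hydratase) by -0.09. Mccc2, the other carboxylase subunit, was at 6.61, 6.98 and 7.15 in deletion mice, against 6.95, 7.06 and 7.53 in control mice. The ends of these ranges belonged to deletion mouse 6 and control mouse 5, and the difference of -0.15 (SE 0.09, interval -0.33 to 0.03) did not pass (adjusted p = 0.369).

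In the valine branch, Hibch, the hydrolase that frees hydroxyisobutyrate from CoA, was at 7.62, 7.88 and 8.10 in deletion mice, against 7.89, 8.11 and 8.26 in control mice. All 8 deletion mice were below the control median, and 5 were below every control mouse. The difference was -0.20 (SE 0.08, interval -0.36 to -0.04), which did not pass over all genes (adjusted p = 0.185), and it was -0.16 without deletion mouse 6 (adjusted p = 0.316). Hibadh, the dehydrogenase of the following step, differed by -0.09. The propionyl-CoA carboxylase subunits, where the valine and isoleucine branches meet on the way to the cycle, differed by -0.06 (Pcca) and -0.07 (Pccb).

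Since the deleted genes encode FoxO factors, the promoter windows of the members were read for the FoxO core GTAAACA or its reverse complement TGTTTAC. Windows were at hand for 35 members and not for Pdp1, Idh3a and Dbt. The core stood in 2 of the 35 (5.71%), Auh and Hibadh, and in 4.05% of the 27025 genes with a window. The estrogen-related receptor site TCAAGGTCA, on either strand, stood in 0 of 35 members and 0.466% of all, and the NRF1 core GCGCATGC, on either strand, in Ogdh and Pccb, and in 3.05% of all. The windows of Auh, at chr13:52929628-52929927, and Hibadh, at chr6:52640251-52640550, both on the minus strand of GRCm38.p6 and read along the gene, are shown because they hold the FoxO core, in capitals. The match begins 234 bases before the start of Hibadh and at base 24 after the start of Auh. Neither gene differed between groups past the test (adjusted p = 0.559 for Auh and 0.519 for Hibadh), and a match is a run of letters, not evidence of binding.
Auh: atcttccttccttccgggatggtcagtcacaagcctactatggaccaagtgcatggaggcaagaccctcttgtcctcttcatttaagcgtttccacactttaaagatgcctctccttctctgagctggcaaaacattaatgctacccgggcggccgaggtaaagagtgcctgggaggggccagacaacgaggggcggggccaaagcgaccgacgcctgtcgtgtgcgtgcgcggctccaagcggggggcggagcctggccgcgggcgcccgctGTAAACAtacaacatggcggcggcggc
Hibadh: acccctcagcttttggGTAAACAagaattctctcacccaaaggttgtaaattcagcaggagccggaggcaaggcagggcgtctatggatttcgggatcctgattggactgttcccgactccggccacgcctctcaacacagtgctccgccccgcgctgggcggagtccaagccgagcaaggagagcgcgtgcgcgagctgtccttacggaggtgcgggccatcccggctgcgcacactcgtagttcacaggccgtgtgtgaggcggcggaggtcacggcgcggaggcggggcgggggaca

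Among the 16 mice, deletion mouse 6 stood apart. It had the lowest value for 28 of the 38 members (73.7%), while it was lowest for 8.66% of all genes. These were 6 of 10 pyruvate entry genes, 9 of 14 cycle genes and 13 of 14 branched-chain genes. Its median deviation from each gene's mean over the mice was -0.34 for the members and 0.01 for all genes. The mean over the 14 branched-chain genes was 7.45 in this mouse, between 7.79 and 8.00 in the 7 other deletion mice, and between 7.80 and 8.04 in controls.

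The members that were not lowest in this mouse were Dlat, Pdk2, Pdk4, Pdp2, Idh2, Idh3a, Ogdh, Dlst, Mdh1 and Bckdk. Its Pdk4, at 12.37, ranked 15 of 16 from below. Its Bckdk, at 9.63, ranked 3. Outside the 38 members, Ppargc1a, the coactivator that drives mitochondrial gene expression, was at 10.65 in it, the highest of the 16. Of the mitochondrial transcription regulators, 1 of 14 was lowest in this mouse, as were 1 of 9 lipoate synthesis genes, 7 of 25 other pyruvate and cycle genes and 12 of 21 other branched-chain genes.

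Marker lists of this mouse lay as follows. Its slow-fibre genes averaged 8.26, inside the range of the other deletion mice (7.30 to 8.88), its liver-transcript list averaged 5.32 and its endothelial list 8.10. Its skeletal muscle fibre list, 12.77, was the lowest of the deletion mice, and control mouse 8 was lower at 12.74. The part of tissue makeup or RNA quality in the low values of this mouse was not tested.

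**Figure D3:**
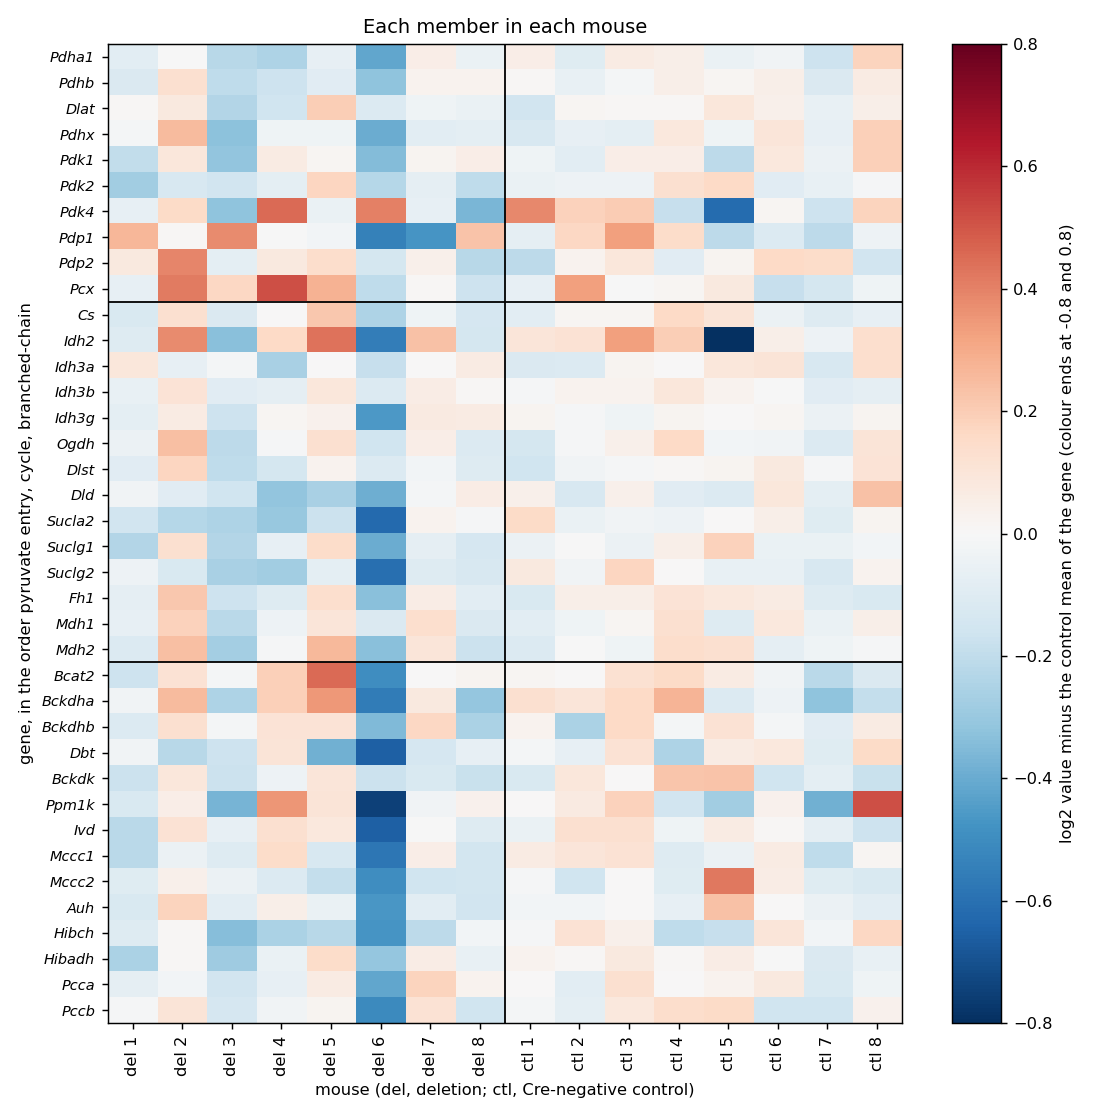
Heat map of log2 expression minus the control mean of each gene, 38 genes in rows by pathway and 16 mice in columns, deletion mice left. Deletion mouse 6 is the lowest of the 16 mice for 28 genes, 13 of them among the 14 branched-chain genes.

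Deletion mice also varied more among themselves. The SD was larger in deletion than in control mice for 34 of 38 members, where it was larger for 63.8% of all genes. The median SD of the members was 0.181 in deletion mice and 0.105 in controls. Without deletion mouse 6, the SD was larger in deletion mice for 30 of 38 members, with a median of 0.141, where the share of all genes was 63.2%. The difference in spread itself was not tested.

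Some deletion and some control muscles carried liver transcripts. Alb, serum albumin, was at 10.02 or above in deletion mice 1, 2, 4 and 5 and in control mice 2 and 7, and at 8.18 or below in the others. In the remaining 4 deletion and 6 control mice, 0 of 38 members passed limma's test (7 of all genes, 0.0515%), and 7 were lower at an unadjusted p under 0.05, where the background was 5.87%, and 0 were higher, where it was 6.28%. The 7 were Pdhx, Pdk2, Suclg1, Suclg2, Bckdha, Dbt and Hibch. All 38 differences were below 0 in these mice, against 53.0% of all genes, with medians of -0.131 for pyruvate entry, -0.144 for the cycle and -0.21 for branched-chain catabolism. Deletion mouse 6 is 1 of those 4 mice. With it left out as well, 36 of 38 were below 0, 1 reached an unadjusted p of 0.05, and the medians were -0.108, -0.089 and -0.117 in the same order.

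The members varied together from mouse to mouse. With group means removed, the 703 pairs of members had a median correlation of 0.48 over 16 mice, against 0.01 for all pairs of genes, and 0.28 without deletion mouse 6. The medians within pathways were 0.58 for branched-chain catabolism, 0.53 for the cycle and 0.21 for pyruvate entry. These are descriptions, and the pairs share the mice and the arrays. The closest pairs were enzymes of different steps: Suclg1 with Mdh2 at 0.93, and Cs with Mdh2 at 0.91, which were 0.91 and 0.88 without deletion mouse 6. Of the 60 pairs below 0, 27 were among the 37 of Pdk4, down to -0.59 with Idh3a. This rested on deletion mouse 6: without it 160 pairs were below 0, 14 of them with Pdk4, 27 with Pdp1, 23 with Dbt and 20 with Dld.

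Subunits of 1 enzyme were then examined as 27 pairs, each with 2-sided permutation tests within groups and Benjamini-Hochberg adjustment over the 27. Pearson's r passed 0.05 for 9 pairs, and both r and Spearman's rho did for 7. The median r of the 27 pairs was 0.49, against 0.48 for all 703 pairs of members. These medians lay close, but both include deletion mouse 6 and their difference was not tested. The 27 also hold pairs with Dld, which several complexes share. For Pdha1 with Pdhb, r was 0.87 and rho 0.85 (permutation test, adjusted p 0.0032 and 0.011). It was 0.91 within deletion mice and 0.79 within controls, and 0.76 without the pair of mice farthest from the median of Pdha1. For Ogdh with Dlst, r was 0.82 and rho 0.76 (permutation test, adjusted p 0.0032 and 0.022), 0.92 within deletion mice and 0.60 within controls, and 0.78 without the farthest mice.

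Other subunit pairs leaned on deletion mouse 6. Sucla2 with Suclg2 had r of 0.79 and rho of 0.68 (permutation test, adjusted p 0.028 and 0.036), but r was 0.47 without that mouse and 0.37 within controls. These subunits are alternatives that each pair with Suclg1, and r of Sucla2 with Suclg1 was 0.38 (permutation test, adjusted p 0.39). Pcca with Pccb had r of 0.75 and rho of 0.58 (permutation test, adjusted p 0.029 and 0.066), and r was 0.45 without deletion mouse 6. No pair within the branched-chain dehydrogenase passed. Bckdha with Bckdhb came closest, at r of 0.64 and rho of 0.64 (permutation test, adjusted p 0.051 and 0.054), with 0.89 within deletion mice and 0.02 within controls.

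**Figure D4:**
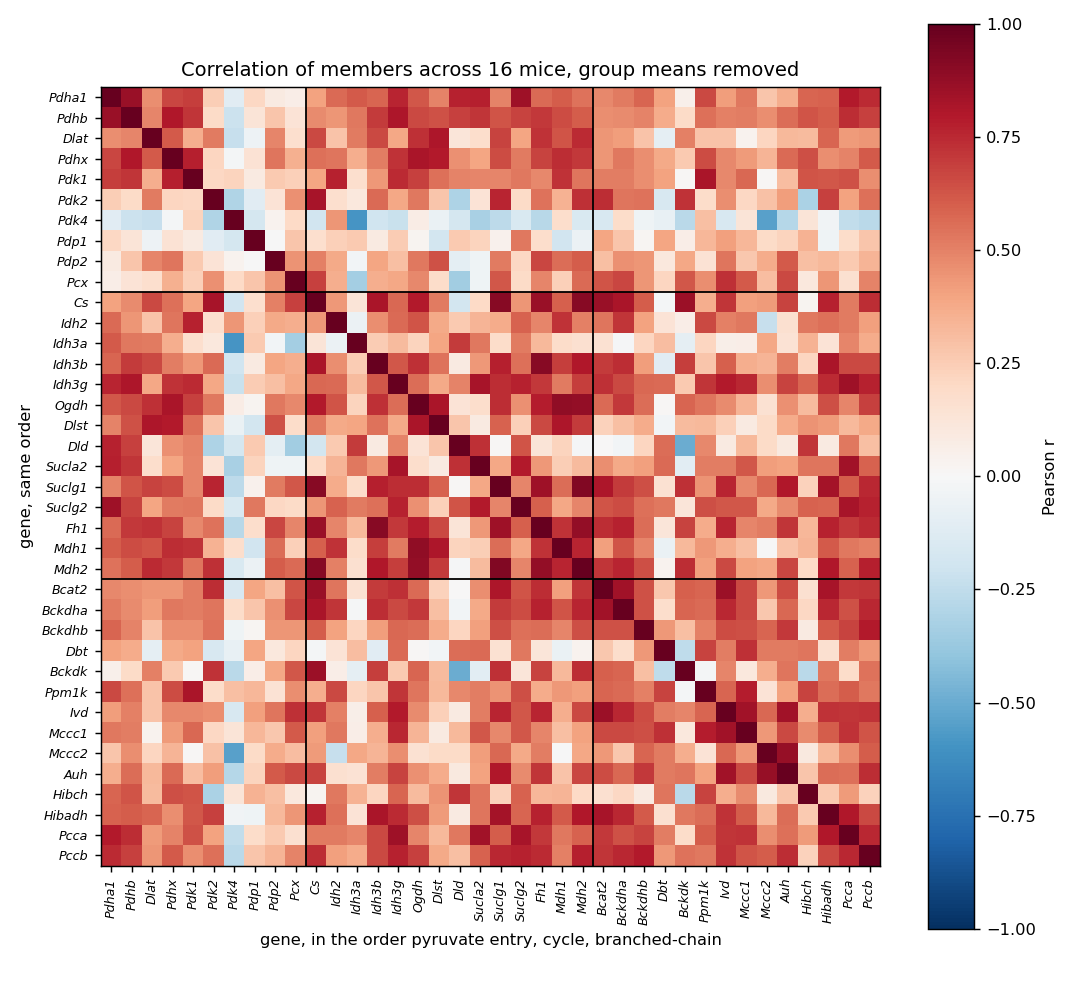
Pearson correlation between each pair of the 38 genes over 16 mice, group means removed, in a 38 by 38 heat map ordered by pathway. Most of the cycle and branched-chain cells are positive, and the row of Pdk4 holds 27 of the 60 negative pairs, against 14 of 160 without deletion mouse 6.

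Genes around the 38 were read from 4 further lists. Of 25 other genes of pyruvate and cycle metabolism tested, 1 rose and 0 fell. The gene that rose was Acly, ATP-citrate lyase, which splits citrate in the cytosol to supply acetyl-CoA for lipid synthesis. It was at 6.53, 6.94 and 7.09 in deletion mice, against 6.36, 6.56 and 6.68 in control mice. In 7 of 8 deletion mice it lay above every control mouse, and the difference was 0.35 (SE 0.08, interval 0.19 to 0.52, adjusted p = 0.0311). The call was lost with no filter on dim probe sets (adjusted p = 0.0592), with replicate numbers as a block (adjusted p = 0.0535), with the slow-fibre list as covariate (adjusted p = 0.0523), and without the mice high in Alb (difference 0.26, adjusted p = 0.384; 0.17 and 0.705 without deletion mouse 6 as well). It was also lost when deletion mouse 1, 2, 4, 5 or 6 or control mouse 1, 3, 5, 6 or 7 was left out, with adjusted p of 0.0512 to 0.0691. White adipocyte markers, which belong to a cell type rich in Acly, averaged 6.21 to 7.98 in deletion muscle and 6.09 to 6.96 in control muscle. Of the 7, 1 was higher by limma's test: Fabp4, with means of 11.88 in deletion and 11.39 in control muscle (adjusted p = 0.0221). Fabp4 was far brighter than Adipoq (means 5.82 in deletion and 5.61 in control muscle), and whether adipocytes were its source here was not tested. Of the others, Cidec was at 0.46, Adipoq and Plin1 each at 0.21, Retn at 0.18 and Lipe at 0.04. Lep, the 1 marker below 0, was at -0.16. The part of these markers in the Acly result was not tested. Slc25a10, the dicarboxylate carrier, was at 0.22 (adjusted p = 0.172), Me1, cytosolic malic enzyme, at -0.28 (adjusted p = 0.253) and Gpt2, alanine aminotransferase, at -0.26 (adjusted p = 0.336).

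Of 21 other branched-chain genes tested, 0 passed. Slc7a5, the light chain of a cell-surface exchanger that brings leucine into cells, had a wide spread: it was at 5.60, 6.93 and 9.43 in deletion mice, against 5.50, 5.86 and 6.21 in control mice. In 6 of 8 deletion mice it lay above every control mouse, and the difference of 1.22 (SE 0.38, interval 0.42 to 2.02) missed the threshold (adjusted p = 0.111). Its heavy chain Slc3a2 was at 6.75, 7.37 and 8.42 in deletion mice, against 6.48, 6.98 and 7.30 in control mice, a difference of 0.48 (adjusted p = 0.163). Both passed when deletion mouse 8 was left out, with adjusted p of 0.0283 for Slc7a5 and 0.0435 for Slc3a2. Without the mice high in Alb the differences were 0.75 for Slc7a5 (adjusted p = 0.397) and 0.21 for Slc3a2 (adjusted p = 0.613), and without deletion mouse 6 as well they were 0.34 and 0.07. Oxct1, which activates ketone bodies, was at -0.19, and Mmut, methylmalonyl-CoA mutase, at -0.15; neither passed.

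Lipoate is the swinging arm of all 3 dehydrogenase complexes. Of 9 lipoate synthesis genes tested, 0 passed, with Mcat at -0.22 (adjusted p = 0.241), Lipt2 at -0.13, Isca2 at 0.12 and Glrx5 at 0.18; Iba57 was not tested. Of 14 regulators of mitochondrial transcription, 0 passed. Tfb2m, a mitochondrial transcription factor that opens the promoter of mitochondrial DNA, came nearest at -0.24 (SE 0.07, interval -0.38 to -0.10, adjusted p = 0.0721), with all 8 deletion mice below the control median. It passed with arrays centred on their medians (adjusted p = 0.0444), with quantile normalization (adjusted p = 0.0427), with the stricter filter (adjusted p = 0.0447) and without control mouse 2 (adjusted p = 0.0413). Ppargc1a was at 0.25 (adjusted p = 0.421), Klf15, a glucocorticoid-induced activator of amino acid breakdown, at 0.16, and Tfeb, a lysosomal and mitochondrial gene activator, at -0.14.

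**Figure D5:**
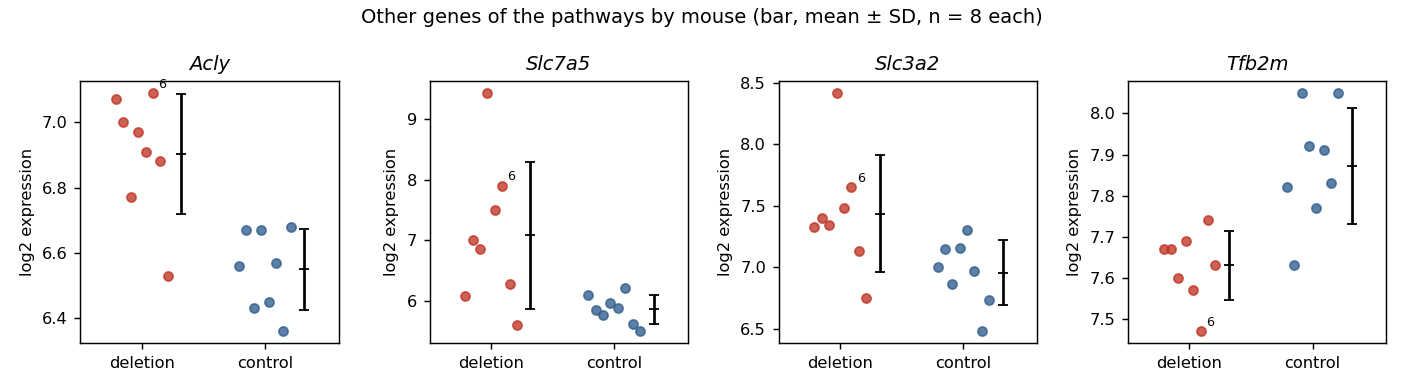
log2 expression (y axis) of 4 genes outside the 38 members in each mouse, deletion mice left and control mice right. Points are mice and bars are group means ± SD (n = 8 each). Acly lies above every control in 7 of 8 deletion mice, Slc7a5 spreads up to 9.43 in deletion mice, and Tfb2m lies below the control median in all 8.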

How the data were processed

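The submitters' processing notes name RMA and oligo, and the authors' deposited table holds log2 expression for 41345 probe sets in 16 mice. The sources used here name no tool version and no array batch. All columns were mapped to a mouse and 0 lacked a sample. Gene names came from the platform annotation: 23521 probe sets had 1 symbol and were used, 1814 had several and 16010 had none.

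Probe sets above their array's median in at least 8 mice were kept, the brightest per gene was taken, and 13601 genes were fitted with limma 3.58.1 (R 4.3.3; lmFit, eBayes) as deletion minus control, with Benjamini-Hochberg adjustment over all genes and a threshold of 0.05. Correlations used group-centred values and 100000 permutations within groups. The code was tested on simulated data. The number of arrays limits the precision. Values are given in full for Pdk4, Bckdk, Ppm1k and the 3 members per pathway with the smallest p in each direction. In the further lists they are given for any gene past the threshold and up to 2 per direction. Cs and Pdk3 were added after their values were seen. The 38 genes, the lists and the rules were chosen with earlier results of these data known. Proteins were not used here.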

Additional observations from a re-analysis of the deposited data

Results flagged for a closer look

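Each member was screened in each group of 8 mice for a highest or lowest mouse whose gap to the next, over the group's range, passed Dixon's critical value. Of 76 groups screened 10 had such a mouse, where chance gives about 1 in 20 for a single group. The members vary together and share the mice, so the 76 are not independent. The count is therefore no test of an excess. Deletion mouse 6 was the low extreme for Idh3g (11.17, other deletion mice 11.46 to 11.70), Suclg2 (8.79, others 9.11 to 9.35), Ivd (6.78, others 7.22 to 7.56), Mccc2 (6.61, others 6.92 to 7.15) and Pccb (8.09, others 8.44 to 8.71). Deletion mouse 5 was the high extreme for Pdk2 (10.3, others 9.85 to 10.06).

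Control mouse 5 took the other 4. It was low for Idh2 (10.26, other controls 11.09 to 11.46) and high for Suclg1 (9.0, others 8.76 to 8.86), Mccc2 (7.53, others 6.95 to 7.17) and Auh (6.69, others 6.37 to 6.46). The slow-fibre list averaged 6.01 in this mouse, below the 7.64 of the next control; the part of fibre makeup in its values was not tested.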

How the results depend on the processing

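In 28 alternatives, 16 of which left out 1 mouse, 0 of 1063 member values passed; the lowest adjusted p was 0.084, for Sucla2 without deletion mouse 8. Over all genes, calls numbered 249, against 137 with no filter, 148 with the slow-fibre list and 162 with the liver list as covariate, 7 without the mice high in Alb, 3 without deletion mouse 6 as well (added after seeing the data), and 107 to 680 leaving out 1 mouse. Of 16 named members, 10 kept their sign throughout. Members lower at an unadjusted p under 0.05 numbered 3 (share of all genes 6.82%), against 10 with arrays centred (13.7%), 6 with quantile normalization (9.58%), 5 with trended variance (6.93%) and 5 with array weights (7.97%). Leaving out 1 mouse gave medians of -0.08 to -0.041 for pyruvate entry, -0.076 to -0.006 for the cycle and -0.111 to -0.027 for branched-chain genes.

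Signs turned as follows. With arrays centred, Pdk4 was -0.04, Pdp2 -0.02, Idh2 -0.04 and Bcat2 -0.04. Quantile normalization gave Bcat2 -0.04. With array weights, Pdk4 was -0.02, Idh2 -0.03 and Bcat2 -0.0025. With the slow-fibre covariate, Pdk4 was -0.05 and Idh2 -0.08; with the liver covariate, -0.02 and -0.03. Without the mice high in Alb, Pdk4 was -0.09, Pdp2 -0.07, Pcx -0.01, Idh2 -0.19, Bcat2 -0.16, Glrx5 -0.0033 and Klf15 -0.12. Without deletion mouse 6 as well, Pdk4 was -0.25, Pdp2 -0.06, Idh2 -0.07, Bcat2 -0.03, Glrx5 -0.13 and Klf15 -0.11. Leaving out 1 mouse gave Pdk4 -0.07 to 0.07, Pdp2 -0.01 to 0.07, Idh2 -0.12 to 0.09, Bcat2 -0.05 to 0.09 and Ppm1k -0.15 to 0.0045. The cause was not tested.

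Replicate numbers shared by the groups gave no sign of pairing: same-numbered deviations correlated at -0.083 to 0.25, and 1 deletion mouse matched its own number best. Such correlations cannot settle whether the numbers mark paired animals. With the number as a block, 0 members passed, the medians stayed at -0.058, -0.046 and -0.089, and 213 genes passed over all.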
